A study of Solanum pimpinellifolium and Solanum chilense with 12 samples.

Results

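Self-incompatibility in the tomato clade works in the style: S-RNases, ribonucleases that the style secretes, enter pollen tubes and arrest those of the plant's own S-type, so that incompatible tubes stop on the way down, while in a self-compatible plant the tubes go on towards the ovary. Both kinds of pollination also alter the style itself, through ethylene, auxin and other hormones, through remodelling of cell walls, and through defence genes that pollen tubes and invading fungi can both induce. The question taken up here was how the response to selfing differed between an incompatible and a compatible style, gene by gene.

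For this, the response of each gene in self-incompatible (SI) styles, self-pollinated (SIP) minus unpollinated (SIUP), was set against its response in self-compatible (SC) styles, SCP minus SCUP. The SI styles came from S. chilense LA0130 and the SC styles from S. pimpinellifolium LA1585, stigmas included, taken from self-pollinated or unpollinated flowers at 24 h. Each group had 3 libraries, 12 in all, and every library of the series entered the comparison. The unit was RPKM, which counts the reads on a gene per kilobase of exon, scaled to library depth, and differences were taken on the scale log2(RPKM + 0.5), so that a value of 1 stands for 2-fold at high levels and folds of low genes are understated. Errors after a difference are standard errors from the fit (SE), and those after a level are standard deviations of the 3 libraries (SD, n = 3). Members were the 17100 of 34718 genes with at least 1 RPKM in 3 or more libraries of each species. Of the others, 1234 passed this filter in S. chilense only, 1813 in S. pimpinellifolium only and 14571 in neither species.

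Each breeding type was 1 accession of 1 species, so incompatibility and species cannot be told apart in any value below. The libraries of both species were aligned to the same tomato genome. The reads on genes ran between 10174283 and 11933635 in SI libraries and between 12926250 and 14499207 in SC libraries. Per 100 high-quality read pairs, SI libraries had 72.6 to 74.7 reads on genes and SC libraries 85.2 to 88.0, a gap between the species whose part in the results was not tested. One read on a 1-kb gene was worth 0.0690 to 0.0983 RPKM. The study calls its libraries biological replicates without saying that they stem from different plants, and the p-values therefore cover only variation among these libraries, which may be technical. Within 3 of the groups 1 library stood apart, by the chi-square per gene between the reads of a pair: SIUP1 (36.4 and 22.4, against 8.30 for SIUP2 with SIUP3), SCP1 (74.9 and 65.3, against 26.7 for SCP2 with SCP3) and SCUP2 (88.8 and 53.8, against 19.1 for SCUP1 with SCUP3). The SIP pairs had 17.8 to 30.01. In pollinated styles, RNA of pollen and pollen tubes cannot be told apart from RNA of the style, and fewer cells of a type cannot be told apart from less RNA per cell. Genes are given by their Solyc ID, whose first digits are the chromosome (00 for unplaced). Functions come from Gene Ontology (GO) terms that the study listed for genes it had itself marked as changed in SI or SC, and 41 of the genes called below carried such terms. The marker lists of pollen, style and green tissue could not be matched to these IDs, so the tissue was not checked against markers.

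Most of the genes called for a different response to selfing rose in SC styles and did not pass for a response in SI styles. Of the 17100 genes tested, 86 passed (0.503%; limma over the 12 libraries, Benjamini-Hochberg adjusted p under 0.05), and 2050 (12%) had an unadjusted p under 0.05, 991 of them higher in SI (5.8%) and 1059 lower (6.19%). The response was lower in SI than in SC for 67 genes (0.392%) and higher in SI for 19 (0.111%), with adjusted p-values between 0.0157 and 0.0496. Among the 67, 62 rose in SC and did not pass in SI, 3 combined an SC rise with an SI fall, 1 rose in both, by more in SC, and 1 fell in SI alone. Their median response was -0.06 in SI and 1.89 in SC, and the estimate in SI was within 0.5 of 0 for 49 of them. The 19 were more mixed: 7 rose in SI alone, 6 fell in SC alone, 3 combined an SI rise with an SC fall, and 3 rose in both, by more in SI. Their median response was 1.19 in SI and -0.47 in SC. Over all genes tested the median response was -0.11 in SI and -0.13 in SC, and the median difference was 0.05.

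**Figure D1:**
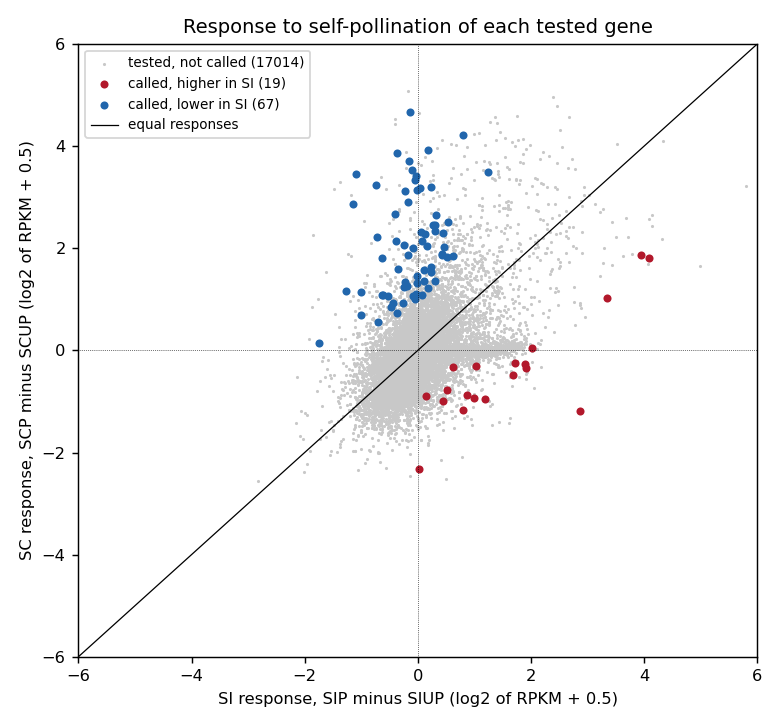
Response to self-pollination in SI styles (horizontal) and SC styles (vertical) for the 17100 genes tested, both as P minus UP in log2(RPKM + 0.5); the diagonal marks equal responses. The 67 genes lower in SI lie mostly in a column near 0 on the SI axis and above 0 on the SC axis, and the 19 genes higher in SI lie below the diagonal, from 0.02 to 4.08 on the SI axis.

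Within each species, in the same fit, selfing raised 346 genes (2.02%) in SI and lowered 103 (0.602%), against 1333 raised (7.8%) and 1905 lowered (11.1%) in SC. With each species fitted by itself, 425 rose and 206 fell in SI, against 664 and 380 in SC. The larger share of falls in SC thus turned, as it did without SCP1 (1310 rose and 1168 fell), without SCUP1 (897 and 590) and without SCUP3 (837 and 695). In each of the 86 genes, all 9 differences between an SIP and an SIUP library lay on one side of all 9 differences between an SCP and an SCUP library, which held for 1.92% of all tested genes upwards and 3.49% downwards. Of the called genes, 33 of the 67 and 9 of the 19 reached 4-fold on the log scale. The separation and the size both come from the values that made the calls, so they are a description and no added support. The called genes were spread over all 12 chromosomes, with 2 to 13 on each and 3 unplaced. In unpollinated styles the SIUP mean was above the SCUP mean for 44 of the 67 genes and 5 of the 19, beside 58.5% of all tested genes. These unpollinated levels are part of the difference itself, so they are given as a description only. Some called genes met the filter only through pollinated libraries, with every unpollinated value under 1 RPKM. This held in SC for Solyc07g063730, Solyc05g041540 and Solyc01g103030, and in both species for Solyc08g074860 and Solyc00g024160. Their rise in those species is tied to the filter. Other called genes had 1 or 2 unpollinated libraries of a species at 1 RPKM or more and reached 3 only with pollinated ones. Examples in SC are Solyc08g068770, Solyc12g100270 and Solyc03g123680, whose SC rise is thus partly tied to the filter too.

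The number of calls hung on single libraries. With 1 library left out it ran between 0 and 259: no gene passed without SIUP2 or without SIUP3 (1571 and 1406 at an unadjusted p under 0.05), 7 passed without SIP1 and 8 without SCUP1 or SCUP3, while 259 passed without SCP1, 207 of them lower in SI. Without the other libraries that stood apart, 107 passed without SIUP1 and 120 without SCUP2. The 86 were all among the 259, while 60 of them were among the 107 and 66 among the 120. All 86 genes kept the direction of their difference in each of these 12 fits. These fits share libraries with the fit that chose the genes, so the kept direction is a description and no added support. A count model on the reads recovered from the RPKM steps (voom) called 30 genes, each of them among the 86. 5 of the 86 lost their call only without SIUP2 or SIUP3, and the other 81 in 3 to 11 of the 12 fits.

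**Figure D2:**
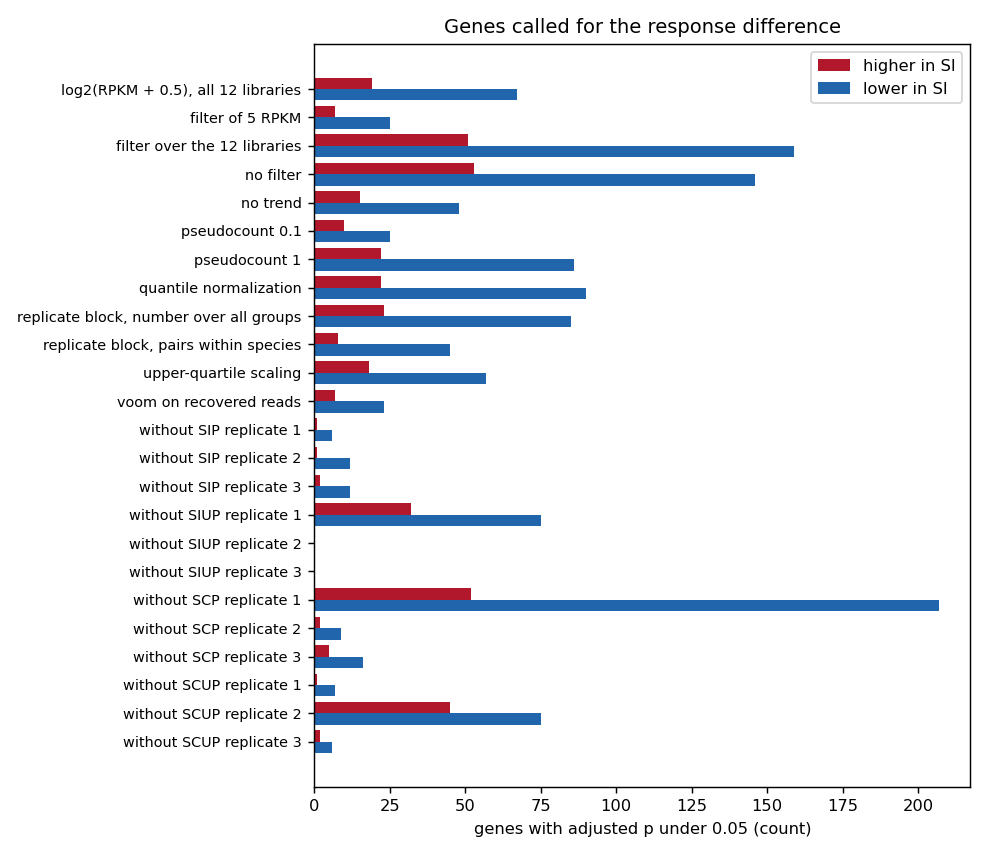
Number of genes with an adjusted p under 0.05 for the response difference (horizontal, count) in the fit described and in 23 alternatives (vertical), split into higher in SI (red) and lower in SI (blue). Without SIUP2 or SIUP3 there were 0, and without SCP1 there were 52 higher and 207 lower.

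The gene with the largest difference in favour of SI was Solyc11g040140, annotated as a xyloglucan endotransglucosylase (XTH), an enzyme that cuts and rejoins the xyloglucan chains tying cellulose together in growing walls. It had 19.6, 32.5 and 21.2 RPKM in SIP, 2.38, 2.92 and 3.25 in SIUP, 2.28, 1.88 and 4.02 in SCP, and 11.5, 4.3 and 5.73 in SCUP. All SIP libraries were above all others, while SCP lay below SCUP throughout. The difference was 4.06 ± 0.49 (SE, adjusted p = 0.0157), made of a rise in SI (2.87) and a fall in SC (-1.20), and of the 12 left-out libraries only SIUP2 and SIUP3 ended the call.

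The remaining 6 tested genes with XTH activity had no call, but 5 of them had an unadjusted p under 0.05 in the same direction, which held for 23.4% of the 633 tested genes with a GO term (25.4% in the other). Solyc03g093080, for example, had 48.9, 51.6 and 76.5 RPKM in SIP, 26.4, 9.37 and 12.8 in SIUP, 508, 265 and 560.1 in SCP, and 305, 601 and 997 in SCUP. SIP lay above SIUP in every library, with SIUP1 the highest of SIUP, SCP overlapped SCUP, and the difference was 2.36 ± 0.66 (SE, adjusted p = 0.179). Its neighbours Solyc03g093110, Solyc03g093120 and Solyc03g093130 gave 2.07, 2.37 and 2.20, and members of such a run may share reads. The exception was Solyc12g011030, which rose in both species (1.75 in SI and 2.30 in SC). Over the 7 XTH genes the median response was 1.75 in SI and -0.43 in SC.

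Pectinesterases, which remove methyl groups from wall pectin, went the same way without a call: all 5 tested had a positive difference at an unadjusted p under 0.05, from 1.41 to 1.85, beside the same 23.4%, with a lowest adjusted p of 0.231. Solyc05g054360 had 128, 197 and 117 RPKM in SIP, 69.5, 22.8 and 29.4 in SIUP, 512, 526 and 558 in SCP, and 318, 793 and 453 in SCUP. SIP lay above SIUP in every library, with SIUP1 again the highest of SIUP, and the SCUP2 value was above all SCP values. The 5 genes had a median response of 1.76 in SI and 0.13 in SC, and 4 of them rose in SI.

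Another 7 annotated genes were higher in SI. Solyc06g051920, a cyclic-nucleotide-gated ion channel by its terms, had 22.5, 23.8 and 15 RPKM in SIP, 5.31, 5.99 and 5.86 in SIUP, 22.8, 33.9 and 36.9 in SCP, and 34.9, 35.1 and 38.9 in SCUP. It rose in SI (1.72) and did not pass in SC (-0.24), with a difference of 1.96 ± 0.29 (SE, adjusted p = 0.0293). All SIUP libraries were below every SC library, while SIP overlapped SCP.

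Solyc01g104030, a voltage-gated potassium channel, showed the reverse build-up. It had 69.4, 65.3 and 61.6 RPKM in SIP, 37.7, 53.8 and 53.9 in SIUP, 29.99, 34.2 and 37 in SCP, and 72.9, 55.1 and 75 in SCUP. SCP was below SCUP in every library, a fall of 0.98, against 0.45 in SI, which did not pass. The difference was 1.43 ± 0.24 (SE, adjusted p = 0.0406).

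Solyc04g058170, with calcium ion binding as its term, had 108, 74.8 and 97.3 RPKM in SIP, 6.88, 8.44 and 10.9 in SIUP, 95.1, 44.6 and 59.7 in SCP, and 27.2, 34.9 and 30.8 in SCUP. This gene rose in both species, by 3.35 in SI and by 1.03 in SC, and the ranges overlapped in pollinated styles and not in unpollinated ones. Its difference was 2.32 ± 0.37 (SE, adjusted p = 0.0324). Solyc02g064980 is a protein kinase annotated to cold, salt, water deprivation, reactive oxygen and pollen sperm cell differentiation. It had 38, 43.8 and 48.3 RPKM in SIP, 8.9, 10.002 and 12.3 in SIUP, 42.1, 34.2 and 57.3 in SCP, and 34.4, 46.7 and 47.2 in SCUP. It rose in SI alone. SIUP did not overlap any other group, SIP lay within the range of the SC libraries, and the difference was 1.97 ± 0.29 (SE, adjusted p = 0.0293).

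The remaining 3 annotated genes of this direction were a regulatory subunit of protein phosphatase 2A, Solyc06g065690, at 10.5 ± 0.998 RPKM in SIP, 4.92 ± 0.21 in SIUP, 2.36 ± 0.169 in SCP and 3.08 ± 0.556 in SCUP (SD); a galactosyltransferase, Solyc02g078590, at 35 ± 4.96 RPKM in SIP, 17.2 ± 1.96 in SIUP, 20.9 ± 5.97 in SCP and 39.4 ± 3.86 in SCUP (SD); and Solyc08g074860, annotated to translation initiation. The phosphatase subunit rose in SI alone (difference 1.33 ± 0.23), and the galactosyltransferase rose in SI and fell in SC (difference 1.94 ± 0.28). Solyc08g074860 had 5.98, 9.72 and 6.5 RPKM in SIP, 0, 0 and 0 in SIUP, 4.63, 3.36 and 2.31 in SCP, and 0.624, 0.433 and 0.60 in SCUP, with no read in any SIUP library. Against a floor of 3 reads over the SIUP libraries, SIP was at least 30.3-fold higher than SIUP, while SCP was 6.17-fold above SCUP.

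Of the 11 genes higher in SI that had no term, Solyc02g065780 had the largest difference, 2.34 ± 0.44 (SE, adjusted p = 0.0478), with 45.9 ± 9.42 RPKM in SIP, 44.9 ± 7.85 in SIUP, 1.79 ± 0.887 in SCP and 10.4 ± 2.57 in SCUP (SD): it fell in SC and was at 0.02 in SI.

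**Figure D3:**
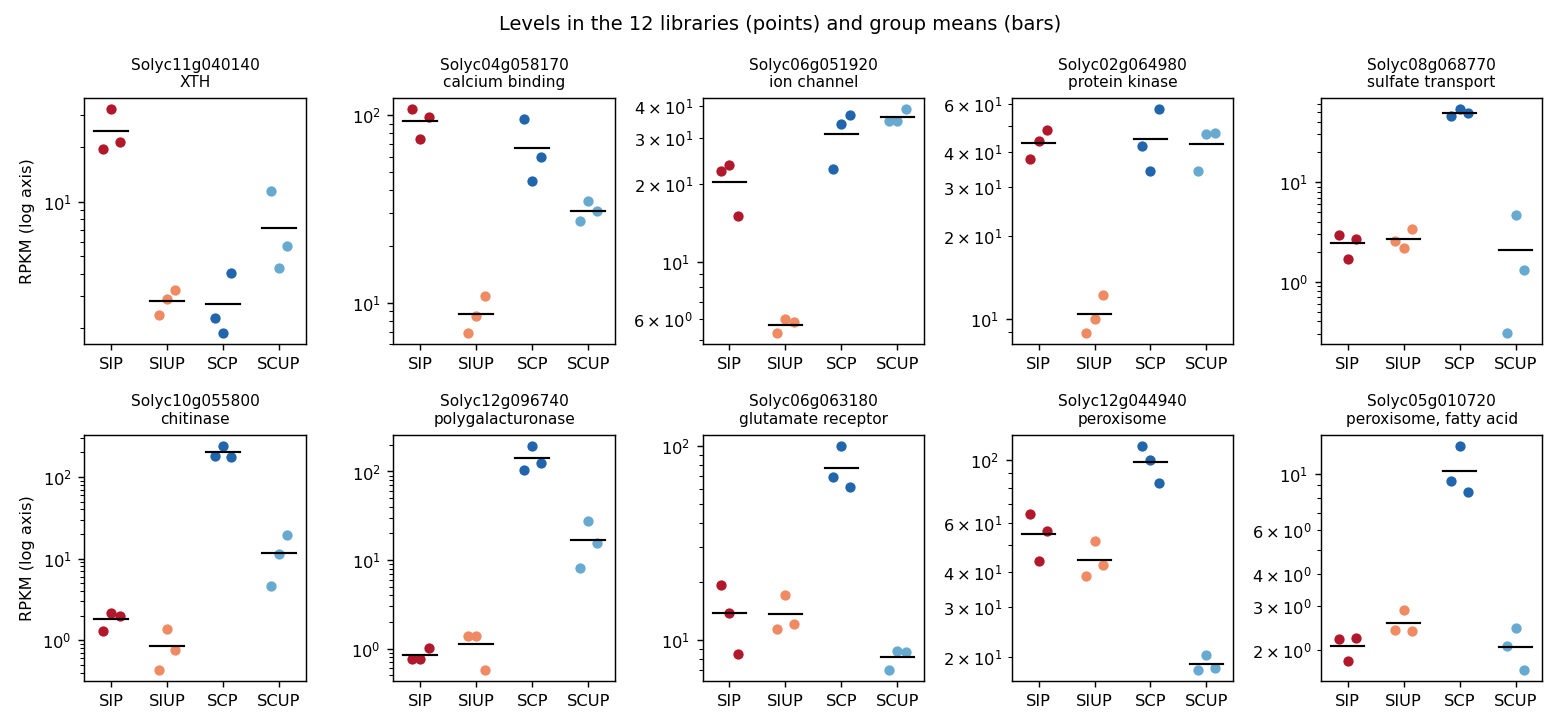
RPKM of 10 of the genes described (log axis, own range in each panel) in the 12 libraries, with group means as bars; SIP, SIUP, SCP and SCUP run left to right. In the first 4 panels SIP lies above SIUP, and in the other 6 SCP lies above every other library while SIP and SIUP overlap or lie close together.

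Among the 67 genes lower in SI, 33 carried terms. Genes acting on the wall and on chitin, the polymer of fungal walls, were among the largest. The chitinase Solyc10g055800, also annotated to the hypersensitive response, had 1.29, 2.14 and 1.99 RPKM in SIP, 0.434, 1.37 and 0.762 in SIUP, 182, 241 and 177 in SCP, and 4.56, 11.5 and 19.2 in SCUP. SCP was above SCUP in every library and all SI libraries were at or under 2.14 RPKM, with a difference of -3.42 ± 0.60 (SE, adjusted p = 0.0447). The polygalacturonase Solyc12g096740, of a class that cuts pectin, had 0.76, 0.758 and 1.0 RPKM in SIP, 1.4, 1.39 and 0.576 in SIUP, 104, 195 and 124 in SCP, and 8.07, 27.4 and 15.5 in SCUP. All SI libraries lay between 0.576 and 1.40 RPKM and the difference was -3.36 ± 0.56 (SE, adjusted p = 0.0405). Both enzymes were near the floor in SI. The chitinase had 59 reads in SIP and 30 in SIUP, and the polygalacturonase 32 and 46. Their differences thus mostly restate the SC response. Solyc10g055200, with cell wall as its only term, had 2.87 ± 1.19 RPKM in SIP, 3.47 ± 1.88 in SIUP, 27.1 ± 4.15 in SCP and 1.63 ± 0.343 in SCUP (SD) and a difference of -3.86 ± 0.55.

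Defence against fungi was a term of a further pair of genes. Solyc04g049090, which also carries negative regulation of defence, calmodulin binding and leaf senescence, had 18.1, 20.5 and 8.69 RPKM in SIP, 15.6, 22.6 and 21.6 in SIUP, 249.8, 156 and 142 in SCP, and 21.2, 27.7 and 34.7 in SCUP. The transcription factor Solyc03g118190 had 1.57, 2.04 and 0.638 RPKM in SIP, 1.68, 1.36 and 1.64 in SIUP, 81.9, 75 and 66.9 in SCP, and 7.27, 14.5 and 8.22 in SCUP. In both, every SCP library was above every SCUP library and SIP overlapped SIUP. Solyc03g118190 was near the floor in SI, with 26 reads in SIP and 31 in SIUP, so its difference mostly restates the SC response. The differences were -3.08 ± 0.46 and -3.08 ± 0.43 (SE, adjusted p = 0.0293 for each).

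Genes with transport terms included the largest difference of the 86. The terms of Solyc08g068770 name both sulfate transport and N-acetyltransferase activity, so its function is not settled by them. It had 2.94, 1.7 and 2.68 RPKM in SIP, 2.57, 2.18 and 3.4 in SIUP, 46.3, 53.9 and 48.9 in SCP, and 0.306, 4.63 and 1.33 in SCUP. Only SCP stood apart, and the unpollinated groups overlapped. It rose by 4.67 in SC against -0.14 in SI, a difference of -4.81 ± 0.71 (SE, adjusted p = 0.0293). Few reads lay behind its low levels, 37 in SIP, 45 in SIUP and 40 in SCUP, and its difference mostly restates the SC response. Solyc06g063180, an ionotropic glutamate receptor, a type of ligand-gated cation channel, had 19.3, 13.8 and 8.44 RPKM in SIP, 11.4, 17 and 12.2 in SIUP, 69.5, 100.1 and 61.5 in SCP, and 7.03, 8.78 and 8.65 in SCUP. Here too SIP and SIUP overlapped and SCP stood above every other library, and the difference was -3.16 ± 0.40 (SE, adjusted p = 0.0166). The transporter Solyc01g103030 was the one gene of the 67 that rose in both species, at 17.7 ± 3.36 RPKM in SIP, 7.26 ± 1.48 in SIUP, 10.9 ± 2.01 in SCP and 0.53 ± 0.322 in SCUP (SD): its response was 1.23 in SI and 3.50 in SC. Solyc04g054500, annotated to metal ion transport, had 32.6 ± 3.67 RPKM in SIP, 27.9 ± 12.8 in SIUP, 78.7 ± 15 in SCP and 12.2 ± 2.94 in SCUP (SD) and a difference of -2.34 ± 0.42.

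The peroxisome, the organelle that breaks down fatty acids and completes the synthesis of jasmonic acid, had 3 genes that were lower in SI. Solyc12g044940, an oxidoreductase, had 64.7, 43.8 and 56.1 RPKM in SIP, 38.8, 51.6 and 42.3 in SIUP, 113, 100.5 and 82.7 in SCP, and 18, 20.3 and 18.3 in SCUP. The groups SCP and SCUP did not overlap, SIP and SIUP overlapped, and the difference of -2.04 ± 0.24 (SE, adjusted p = 0.0157) passed in 21 of 23 alternatives. Solyc05g010720, a fatty acid isomerase by its terms, had 2.2, 1.82 and 2.22 RPKM in SIP, 2.39, 2.88 and 2.38 in SIUP, 9.4, 12.9 and 8.48 in SCP, and 2.08, 2.44 and 1.67 in SCUP. SIP lay just under SIUP, and only SCP stood apart. Its difference was -2.30 ± 0.28 (SE, adjusted p = 0.0157) and passed in 20 of 22 alternatives. The acyl-CoA oxidase Solyc08g078390, the enzyme class that opens beta-oxidation and is annotated to jasmonic acid synthesis, averaged 166 ± 6.44 RPKM in SIP, 178 ± 12.4 in SIUP, 249.97 ± 8.11 in SCP and 121 ± 27.7 in SCUP (SD), with a difference of -1.16 ± 0.21 (adjusted p = 0.0478). Of the 12 tested peroxisome genes, these 3 passed, beside 5.21% called lower in SI among the 633 tested genes with a GO term, of which 300 rose in SC. In the group SI had 3 rises and 1 fall, and SC had 9 rises and 2 falls; the median difference was -0.69. A pair had large positive estimates without a call, 2.05 ± 0.55 for Solyc02g070530 and 1.76 ± 0.45 for Solyc02g067580.

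Fatty acid and other oxidising enzymes gave further large values. Solyc12g100270, an oxidoreductase of fatty acid synthesis, had 3.8, 5.54 and 1.97 RPKM in SIP, 6.5, 7.76 and 10.1 in SIUP, 7.56, 11.3 and 11.7 in SCP, and 0.0385, 0.561 and 1.04 in SCUP. SCP lay above SCUP in every library and SIP below SIUP, although the SI response did not pass the test, and the difference was -4.54 ± 0.57 (SE, adjusted p = 0.0166). This gene met the SC filter only with SCP libraries, and its difference ran between -6.13 and -3.87 over the alternatives. The 2-oxoglutarate-dependent oxygenase Solyc02g062460 had the highest mean in SCP of the 33, with 12, 8.38 and 10.3 RPKM in SIP, 11.6, 8.99 and 9.19 in SIUP, 331, 656 and 533 in SCP, and 33.9, 106 and 41.5 in SCUP. SI libraries stayed at or under 12 RPKM, and the difference was -3.15 ± 0.53 (SE, adjusted p = 0.0406). Solyc12g042480, a monooxygenase with a haem group, averaged 12.3 ± 1.05 RPKM in SIP, 12.2 ± 5.62 in SIUP, 35.7 ± 2.89 in SCP and 6.97 ± 1.35 in SCUP (SD) (difference -2.17 ± 0.40). The hydrolase Solyc10g050880 had 18.4, 26.9 and 14.7 RPKM in SIP, 35.5, 49.4 and 47.9 in SIUP, 42.2, 20.5 and 17 in SCP, and 2.6, 2.38 and 3.97 in SCUP, with SCP above SCUP and SIP below SIUP without overlap. Its difference was -4.03 ± 0.47 (SE, adjusted p = 0.0157), which passed in 21 of 23 alternatives.

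Protein kinases, enzymes that pass signals on by phosphorylation, made up 5 of the annotated genes lower in SI. Of these, Solyc07g063730 and Solyc00g201160 carry the term recognition of pollen, which many receptor kinases of plants share through a domain known from the S-locus glycoproteins of Brassica. Solyc07g063730 had 3.78, 3.58 and 3.63 RPKM in SIP, 4.22, 8.23 and 6.1 in SIUP, 2.58, 3.74 and 2.19 in SCP, and 0.267, 0.741 and 0.342 in SCUP. SCP lay above SCUP and SIP below SIUP in every library, and the difference was -2.46 ± 0.38 (SE, adjusted p = 0.0306). The gene met the SC filter only through SCP. Solyc00g201160 averaged 4.93 ± 1.09 RPKM in SIP, 6.81 ± 0.494 in SIUP, 6.16 ± 0.534 in SCP and 3.0 ± 0.0607 in SCUP (SD), with the same directions and a difference of -1.37 ± 0.23. Of the other 4 tested members, Solyc09g075910 missed the threshold at -2.83 ± 0.57 (SE, adjusted p = 0.0595), and Solyc02g079590 and Solyc09g011330 rose in both species with differences of 0.32 ± 0.29 and 0.03 ± 0.49. The last, Solyc04g077270, rose in SC and did not pass in SI, with a difference of -2.69 ± 1.26. It was near the floor, with 8 reads in SIP, 7 in SIUP, 78 in SCP and 9 in SCUP. The MAP kinase cascade gene Solyc08g066210 averaged 7.93 ± 1.38 RPKM in SIP, 5.62 ± 0.818 in SIUP, 57.7 ± 12.4 in SCP and 13.7 ± 1.05 in SCUP (SD) and differed by -1.56 ± 0.26. Solyc04g007390 and Solyc04g011520, annotated also to tyrosine phosphorylation, differed by -2.53 ± 0.39 and -1.33 ± 0.25; all 3 rose in SC alone.

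Transcription regulators were called in the same direction. Beside Solyc03g118190, Solyc02g078340 averaged 19.5 ± 1.55 RPKM in SIP, 14.1 ± 5.88 in SIUP, 99.5 ± 17.4 in SCP and 16.9 ± 1.74 in SCUP (SD) and differed by -1.98 ± 0.35. Solyc04g080740, annotated to seed germination, and Solyc10g080930 had smaller differences of -1.14 ± 0.20 and -1.01 ± 0.19. Solyc10g080930 lay just inside the threshold (adjusted p = 0.0496), as did the unannotated Solyc00g024160 on the other side of 0 (adjusted p = 0.0488), which had 8.62 ± 1.86 RPKM in SIP, 0.0339 ± 0.0588 in SIUP, 2.72 ± 1.32 in SCP and 0.392 ± 0.228 in SCUP (SD) and 1 read over the SIUP libraries. The next genes by p, outside the threshold, were the copper-binding Solyc03g116700 at -3.71 ± 0.70 (adjusted p = 0.0507) and a gene with no term at -2.34 (adjusted p = 0.0514).

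The remaining annotated genes lower in SI had varied terms. Solyc06g066590, annotated to oxidative stress, averaged 6.48 ± 2.12 RPKM in SIP, 6.78 ± 0.963 in SIUP, 30.3 ± 11.1 in SCP and 2.31 ± 1.43 in SCUP (SD) and differed by -3.63 ± 0.56. The zinc-binding Solyc03g123680 averaged 2.97 ± 0.492 RPKM in SIP, 2.46 ± 0.422 in SIUP, 10.9 ± 2.97 in SCP and 0.74 ± 0.268 in SCUP (SD) and differed by -2.96 ± 0.35, with 2 of the 12 left-out libraries ending its call. The serine carboxypeptidase Solyc05g041540 averaged 1.66 ± 0.512 RPKM in SIP, 3.12 ± 1.34 in SIUP, 3.8 ± 1.36 in SCP and 0.438 ± 0.335 in SCUP (SD) and differed by -2.93 ± 0.54. An enzyme of nicotinate salvage towards NAD, Solyc02g093290, averaged 57.2 ± 8.3 RPKM in SIP, 67.5 ± 10.3 in SIUP, 37.4 ± 5.05 in SCP and 15.5 ± 1.1 in SCUP (SD) and differed by -1.47 ± 0.22, with all SC libraries below all SI libraries. An acetylglucosaminyltransferase, Solyc06g062490, differed by -1.32 ± 0.24. The last 3, with general terms of metal binding, ligase or catalytic activity, were Solyc06g082010, Solyc01g108030 and Solyc01g066450, at -1.60 ± 0.27, -1.04 ± 0.18 and -2.16 ± 0.40. Of the 34 genes without a term, Solyc05g008220 and Solyc03g006700 had the largest differences, -4.23 ± 0.70 and -3.98 ± 0.64, and both rose in SC. Both were near the floor in SI, with 41 and 29 reads in SIP and 66 and 76 in SIUP. Their differences thus mostly restate the SC response.

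The hormone genes that the study named by ID were followed as a group, since hormone signals are held to accompany both kinds of pollination. There were 48, of which 39 passed the filter, and the study had chosen them on these same libraries for a change in SI or SC. In the same fit 22 of the 39 rose in SI and 23 in SC, where 1 also fell. At an unadjusted p under 0.05 the difference was higher in SI for 10 of the 39 and lower for 4. Among the 633 tested genes with a GO term, also chosen by the study for a change, these shares were 23.4% and 25.4%. By adjusted p the response differed for 1 of the 39, beside 6.48% of those 633 and 0.503% of all genes tested. This was Solyc06g060250, an aldehyde dehydrogenase (family 3 member H1-like) placed in auxin synthesis. The study, by its own test, reports this gene as lowered by selfing in SI. Here its response was -0.22 in SI, which did not pass, and 1.34 in SC. It had 69.8, 99.3 and 63.7 RPKM in SIP, 67.9, 110.1 and 93.2 in SIUP, 129, 135 and 104 in SCP, and 48.3, 48.4 and 46.9 in SCUP. The SI groups overlapped, SCP was above SCUP in every library, and the difference was -1.56 ± 0.29 (SE, adjusted p = 0.0478); the call ended in 10 of the 12 fits with a library left out, and voom called none of the 39.

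Most ethylene synthesis genes rose in both species. S-adenosylmethionine synthase feeds ACC synthase (ACS), whose product ACC is turned into ethylene by ACC oxidase (ACO). Of 9 such genes tested, 8 rose in SI and 6 in SC, and none passed for the difference (median 0.29, lowest adjusted p = 0.251, 2 at an unadjusted p under 0.05). The ACS gene Solyc08g008100 came closest. It had 372, 218 and 284 RPKM in SIP, 60.4, 42.9 and 72.5 in SIUP, 406, 118 and 245 in SCP, and 129, 150.1 and 156 in SCUP. SIP lay above SIUP without overlap, SCP and SCUP overlapped through SCP2, and the difference was 1.65 ± 0.53 (SE, adjusted p = 0.251). Of the 6 ethylene signalling genes tested, which include receptors and the F-box proteins EBF1/2, SI had 4 rises, SC had 4 rises and 1 fall, none passed for the difference (1 at an unadjusted p under 0.05), and the median difference was -0.12. The Skp1 gene Solyc01g111640, part of the ubiquitin ligase complex, had a difference of 1.16 ± 0.29 (SE, adjusted p = 0.12).

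Auxin genes were the largest group, with 17 tested, 7 that rose in SI, 10 that rose in SC and a median difference of 0.04. Beside the call above, 4 had a positive and 1 a negative difference at an unadjusted p under 0.05, among them the SAUR gene Solyc06g053260 at -1.68 ± 0.56 and the Aux/IAA gene Solyc09g065850 (IAA3) at 0.76 ± 0.28. Aux/IAA proteins repress auxin responses and SAUR genes are early auxin targets.

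Abscisic acid genes had a median difference of -0.29 over 5 tested, with 1 higher and 2 lower at an unadjusted p under 0.05 and no call. The receptor gene Solyc06g050500 (PYL6-like) had 2.69, 2.42 and 1.47 RPKM in SIP, 1.41, 2.52 and 2.57 in SIUP, 18.1, 30.7 and 25.5 in SCP, and 5.34, 6.62 and 6.87 in SCUP. The SI groups overlapped, SCP was above SCUP throughout, and the difference of -1.85 ± 0.37 (SE, adjusted p = 0.06) missed the threshold. CYP707A2 (Solyc08g005610), which breaks abscisic acid down, had a difference of 1.53 ± 0.68 (SE, adjusted p = 0.406), and the receptor gene Solyc03g007310 (PYL8-like) one of -1.70 ± 0.74 (SE, adjusted p = 0.398). The medians of the ethylene signalling, auxin and abscisic acid groups crossed 0 over the alternatives (-0.24 to 0.05, -0.13 to 0.22 and -0.56 to 0.04). Both genes tested of jasmonic acid signalling had positive estimates. The repressor JAZ1 (Solyc12g009220) had 399, 436 and 488 RPKM in SIP, 175, 127 and 147 in SIUP, 554, 576 and 610.3 in SCP, and 366, 481 and 449.7 in SCUP. It rose in SI (1.57) and was at 0.43 in SC, and the difference was 1.13 ± 0.22 (SE, adjusted p = 0.0576). MYC2 (Solyc08g076930), the transcription factor that JAZ proteins hold back, rose in both species, with a difference of 0.68 ± 0.20 (SE, adjusted p = 0.209).

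**Figure D4:**
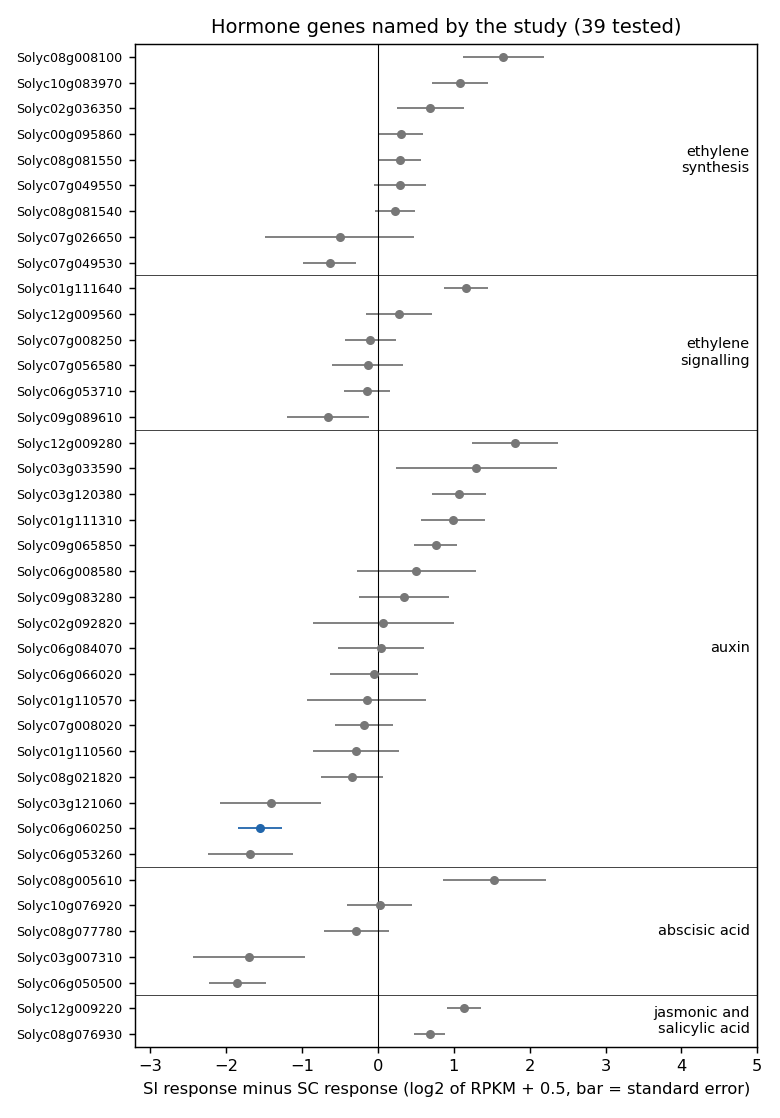
SI response minus SC response (horizontal, log2 of RPKM + 0.5, bars are standard errors) of the 39 hormone genes tested, grouped by hormone and sorted within each group. Solyc06g060250, in blue, passed at an adjusted p of 0.0478; the others run between -1.85 and 1.80 on both sides of 0.

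Groups of annotated genes were described by their counts and medians beside those of all 633 tested genes with terms, of which 41 were called (6.48%; 8 higher in SI, 1.26%, and 33 lower, 5.21%) with a median difference of 0.25. These genes had been chosen by the study for a change on these libraries, and the groups were picked after values were seen. Recognition of pollen (6 genes, 2 lower) had a median difference of -1.91, or -0.53 with a filter of 5 RPKM, with all 6 rising in SC and 2 in SI. Ubiquitin-protein ligases, which mark proteins for breakdown, had no call among 9 (2 higher and 5 lower at an unadjusted p under 0.05, beside 23.4% and 25.4% of the 633) and a median of -0.81, with 6 rising in SC and 3 in SI; Solyc02g093520 had the lowest adjusted p (0.11), at 111 ± 13.8 RPKM in SIP, 82.2 ± 12.3 in SIUP, 203 ± 18.7 in SCP and 84.1 ± 4.14 in SCUP (SD). Pollen tube growth had no call among 6 (3 higher at an unadjusted p under 0.05, beside 23.4%) and a median of 1.26, with a median response of 1.16 in SI and 0.00 in SC. Among its members are genes of groups above, the pectinesterase Solyc05g052110 and the kinase Solyc12g017390. The lowest adjusted p of the group was that of Solyc01g080150, at 1.80 ± 0.38 (SE, adjusted p = 0.0725). Voom also made no call in the pectinesterase, ubiquitin-protein ligase and pollen tube growth groups.

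**Figure D5:**
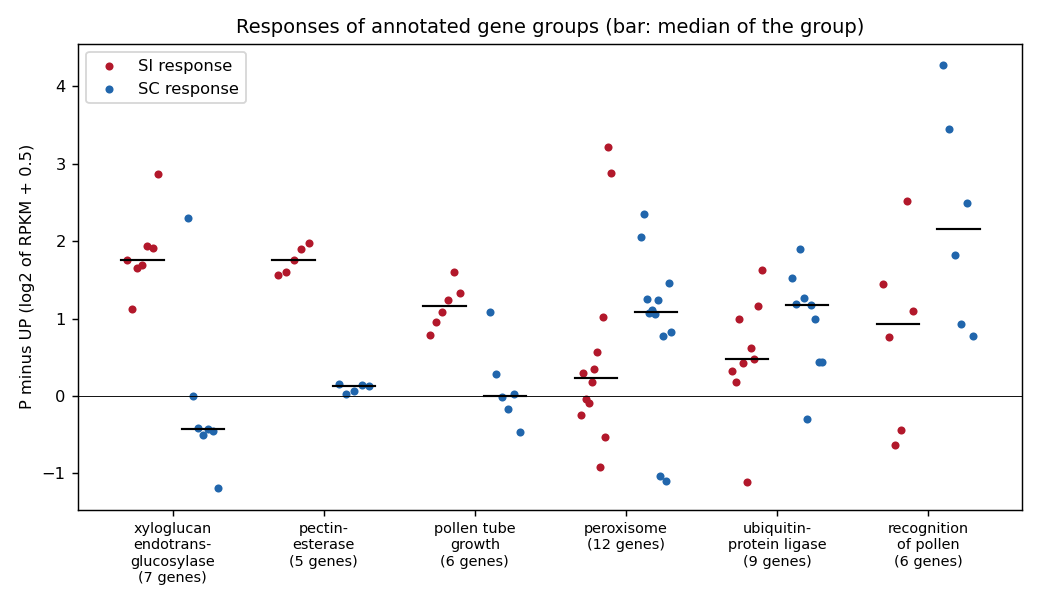
Response to self-pollination (vertical, P minus UP in log2 of RPKM + 0.5) of the tested genes in 6 annotated groups, SI in red left of SC in blue, 1 point per gene and a bar at the group median. XTH and pectinesterase genes had medians of 1.75 and 1.76 in SI against -0.43 and 0.13 in SC; recognition of pollen had 0.93 in SI against 2.15 in SC.

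Other groups had medians near that of all annotated genes, or medians that turned with the filter. Protein serine/threonine kinases (47 genes, 1 higher and 5 lower) had a median of -0.05 and transcription factors (22 genes, 3 lower) one of 0.17, and both crossed 0 over the alternatives (-0.19 to 0.27 and -0.25 to 0.31). Defence response to fungus (12 genes, 1 lower) had -0.82, which became 0.80 with a filter of 5 RPKM. Genes of the responses to ethylene, to auxin and to jasmonic acid (10 each) had 0.16, 0.28 and 0.29, with 1 call, the XTH gene Solyc11g040140, which carries an auxin term, and the ethylene median ran between -0.12 and 0.33. The response to abscisic acid (19 genes, 1 higher and 1 lower) had -0.14 (-0.42 to 0.41 over the alternatives), with the potassium channel Solyc01g104030 on one side and the aldehyde dehydrogenase Solyc06g060250 on the other. Chloroplast stroma genes (25, none called, 4 higher and 3 lower at an unadjusted p under 0.05) had 0.39. In SI, 2 of them rose and 2 fell, against 4 that rose and 17 that fell in SC.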

How the data were processed

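The RPKM values were made and deposited by the authors, using Trimmomatic 0.32 for filtering, TopHat2 for alignment to the tomato reference and HTSeq for counting reads on genes. Not given in the sources used here are the genome build, the strand setting and how multiply matching reads were handled. Members of a gene family and antisense neighbours may thus share reads. Deposited counts of read pairs, before and after quality filtering, were made by the authors and served only as a check of depth. The deposited table further holds the authors' log2 ratios, p-values and marks of changed genes, which were not used. It lists 34725 genes, of which 7 hold error codes and were left out.

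Libraries were grouped by their titles. Values of log2(RPKM + 0.5) were fitted as 1 linear model over 4 groups of 3 libraries, with empirical Bayes moderation and trend (limma 3.58.1, R 4.3.3), as (SIP - SIUP) - (SCP - SCUP), for genes with at least 1 RPKM in 3 libraries of each species. P-values were adjusted over all genes tested by the Benjamini-Hochberg method at 0.05. The study's methods name DESeq and t-tests on each species, and a count test was not taken as the main one because the unit is RPKM. RPKM values were whole multiples of 1 read in 26562 of 26562 genes above 0 in at least 2 libraries (within 0.001 reads), which gave back whole reads for limma's voom. Replicate libraries of a group differed by more than counting noise in every pair (chi-square per gene of 8.30 or more), so none was counted as a duplicate. The fitting procedure was tested on simulated data.

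Errors after ± are standard deviations of 3 libraries (SD) or limma's standard errors (SE). Genes were named by a rule: the 12 largest differences in each direction among called genes whose 9 SI differences lay apart from their 9 SC differences, restricted in print to annotated genes and at most 2 unannotated ones a side, then list members that passed, hormone genes, and 2 genes on each side of the threshold. The other annotated called genes were added after their values were seen. The members and lists were chosen with earlier results of these data known. Lists were the 5 hormone groups named by the study and 14 GO groups, added after values were seen, from terms that the study gave for 860 genes. Lists by product name and the marker lists could not be matched, since the reference table used here holds 0 Solyc IDs, and were not used. Alternatives were other pseudocounts, filters, scalings, no trend, voom, replicate blocks and each library left out. Summaries used pandas 2.3.3 and numpy 2.4.6 under Python 3.11.15, and figures matplotlib 3.10.9.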

Additional observations from a re-analysis of the deposited data

Results flagged for a closer look

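The test of the difference itself marked 12 of the annotated genes among the largest in each direction (limma, adjusted p from 0.0157 to 0.0447). Lower in SI were Solyc08g068770, with sulfate transport and N-acetyltransferase terms (-4.81, passing in 13 of 22 alternatives), the fatty acid oxidoreductase Solyc12g100270 (-4.54, 20 of 23) and the hydrolase Solyc10g050880 (-4.03, 21 of 23). Next came the cell wall gene Solyc10g055200 (-3.86, 12 of 22), the oxidative stress gene Solyc06g066590 (-3.63, 14 of 23), the chitinase Solyc10g055800 (-3.42, 10 of 22) and the polygalacturonase Solyc12g096740 (-3.36, 11 of 22). Higher in SI were the XTH gene Solyc11g040140 (4.06, 20 of 22), the calcium-binding Solyc04g058170 (2.32, 12 of 23), the kinase Solyc02g064980 (1.97, 15 of 23) and the channel Solyc06g051920 (1.96, 16 of 23). For the translation gene Solyc08g074860 (2.09, 7 of 22) the fitted value depends on the pseudocount, since SIUP was at 0. With SIUP set at 3 reads and the SC fold taken as measured, from 8 reads in SCUP, the log2 difference was 2.30. The alternatives ran between 1.56 and 3.80, so 2.30 is not a lower limit. Each of the 12 calls ended in at least 2 of the 12 fits with a library left out. No test for a single outlying library was run on the groups of 3.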

How the results depend on the processing

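The number of genes called for the response difference moved with most choices, from 86 (19 higher and 67 lower in SI). It was 32 (7 and 25) with a filter of 5 RPKM, 210 (51 and 159) with the filter taken over the 12 libraries, 199 (53 and 146) with no filter, 35 (10 and 25) with a pseudocount of 0.1 and 30 (7 and 23) with voom on the recovered reads. With 1 library left out, the count ran between 0 and 259, with 0 to 52 higher and 0 to 207 lower. Without SIUP1 and without SCUP2 it was 107 and 120, and without SCP2, SCP3, SIP2 and SIP3 it was 11, 21, 13 and 14. A pseudocount of 1, quantile normalization, upper-quartile scaling and no trend gave 108, 112, 75 and 63. The cause of these moves was not tested. Within the species, SI calls ran between 86 and 1132 and SC calls between 1487 and 3454 with 1 library left out, and with each species fitted by itself there were 631 in SI and 1044 in SC. Same-numbered libraries did not deviate together in every pair (correlations of -0.23 to 0.38 over 6 pairs). With 3 libraries a group, these values cannot decide whether libraries of the same number were collected together, which the study does not state. The main fit used the numbers only as names of libraries. A replicate block of 6 pairs gave 53 calls (8 and 45), with 161 in SI, and a replicate block of 3 numbers gave 108; 29 of the 53 and 69 of the 108 were among the 86. The 53 called genes followed singly kept their direction in all 1196 fits that could be made and passed in 625. They were chosen on these same libraries, so the kept direction is no added support. With a filter of 5 RPKM, the medians of kinases, recognition of pollen, defence and the abscisic acid response became 0.27, -0.53, 0.80 and 0.41, where fewer genes were tested. Leaving out SCUP2 shifted the median of all genes to 0.11. Depth limits genes near 1 RPKM, where 1 read weighs up to 0.0983 RPKM per kilobase.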

Other observations

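With the filter taken over the 12 libraries rather than within each species, 210 genes passed (limma, adjusted p under 0.05), the 86 and 80 outside the set among them, 62 of these lower in SI and 18 higher. A gene near 0 in 1 species has a difference that mostly restates the response of the other species, so the 80 are given as a description and not as unlike responses. Of the 48 hormone genes named by the study, 9 did not pass the filter in both species. Xanthoxin dehydrogenase (Solyc12g056600), an enzyme of abscisic acid synthesis, had 0.719, 0.0807 and 1.31 RPKM in SIP, 0, 0.0778 and 0.23 in SIUP, 238, 308 and 176 in SCP, and 10.8, 25.1 and 17.7 in SCUP. SCP was above SCUP in every library and no SI library passed 1.31 RPKM. The auxin-induced gene Solyc09g009980 (15A-like) had 0.749, 0.493 and 0.137 RPKM in SIP, 0.0872, 0.0864 and 0.17 in SIUP, 18.5, 14.4 and 12.8 in SCP, and 0.874, 1.25 and 1.05 in SCUP, with the same order of the groups. Another auxin-induced gene, Solyc04g081250 (ARG7-like), had 0.279 ± 0.254 RPKM in SIP, 0.143 ± 0.0624 in SIUP, 3.92 ± 0.831 in SCP and 1.55 ± 0.633 in SCUP (SD). Higher in SI than in SC were the ACS gene Solyc00g095760, at 21, 16.4 and 19.5 RPKM in SIP, 8.4, 9.0 and 9.62 in SIUP, 0.0759, 3.09 and 1.3 in SCP, and 0.215, 0.447 and 0.413 in SCUP, with SIP above SIUP throughout, and the aldehyde dehydrogenase Solyc08g068190 (family 2 member B4), at 3.38 ± 0.848 RPKM in SIP, 6.89 ± 0.313 in SIUP, 0.158 ± 0.157 in SCP and 0.245 ± 0.0788 in SCUP (SD), with SIP below SIUP throughout. By its own test the study reports Solyc08g068190 as raised by selfing in SC. Here the gene had 3 reads in SCP and 5 in SCUP, too few to show a rise. The other 4 had means of at most 1.83 RPKM in every group.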
